A study of Mus musculus with 8 samples.

Results

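Mature mouse sperm of males on the control diet were profiled on 3 Affymetrix gene arrays, out of 8 arrays in a series that also covered sperm of males on a low-protein or a caloric-restriction diet and epididymal tissue. The 3 arrays are called A, B and G here, after the letters in their titles, and were chosen by their label alone. They carried total RNA of sperm from the caudal epididymis of C57/Bl6 males that had been raised on that diet until 9 to 12 weeks of age. The punctured tissue had been kept for 30 min in M2 medium before the sperm were pelleted and washed, and preparations had to be over 99.5% pure under the microscope and free of PCR signal of Actb and Myh11. The labels do not say whether an array stands for a single male or a pool, so the spread over the 3 arrays may be technical. A value was available for 19411 genes, each represented by its probe set of highest mean, and no other group entered the values below.

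A sperm cell is made in the testis from a round spermatid, which replaces its histones with transition proteins and then protamines, builds a flagellum around an axoneme sheathed by outer dense fibres and a fibrous sheath, and forms an acrosome over the nucleus. Transcription stops as the chromatin condenses, so the messages for these parts are made early, stored and translated later. Most cytoplasm, with its ribosomes, is shed before the cell leaves the testis, and the RNA of a mature sperm is commonly regarded as what remains. Sperm then mature in the epididymis, whose epithelium secretes proteins, lipids and vesicles into the lumen around them.

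Values are log2 hybridisation intensities, so a difference of 1 is a doubling of signal. Probe sets bind with different strength, and the order of genes given below is an order of signal, not of the number of transcripts. Pearson correlations across the 19411 genes, which are not independent replicates, were 0.98 between A and B, 0.98 between A and G and 0.99 between B and G. The median gene stood at 6.33, the 90th percentile at 7.97 and the 99th at 9.93. As a stand-in for background, the 95th percentile of 96 vomeronasal receptor genes, which serve smell in the nose, was taken in each array, and it was 5.24 in A, 4.95 in B and 4.95 in G. By that measure 15450 genes (79.6%) were above background in all 3 arrays; a gene that missed it in any array is called not above background.

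The genes that define spermatids and sperm were among the brightest of the profile. Prm2, a protamine that packs sperm DNA, read 12.86, 12.76 and 12.46 in arrays A, B and G (12.70 ± 0.21, SD, n = 3), and was 9th by mean level. Tnp2, a transition protein that precedes the protamines, read 11.02, 10.69 and 10.15 and Prm1 read 10.69, 10.58 and 9.88. Gapdhs, the glycolytic enzyme of the sperm tail, read 10.10, 9.97 and 9.90. All 4 markers lay above the 99th percentile of genes in mean level, and each was highest in A and lowest in G. The differences within Prm1 and Tnp2, with SDs of 0.44 and 0.44, were wider than the median SD of 0.15 among genes above background.

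The 20 brightest genes mixed sperm structure, translation, mitochondria, epididymal secretions and stable non-coding RNAs. Structural proteins of the tail led the sperm genes, namely Smcp, the cysteine-rich protein around sperm mitochondria (13.47, 13.27 and 12.93), and Odf1, the main outer dense fibre protein (13.24, 13.00 and 12.92). Of non-coding RNAs, Rn7sk, which restrains transcription elongation, read 13.70, 13.81 and 13.71, and Rmrp, the RNA of the RNase MRP enzyme, read 11.77, 11.96 and 12.59. Rn7sk was nearly level over the arrays, whereas Rmrp was clearly highest in G.

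Translation was represented by Eef1a1, which brings transfer RNAs to the ribosome (13.28, 13.41 and 13.37), and by the ribosomal protein genes Rpl10, Rpl9, Rpl21, Rps2 and Rplp1, with means from 12.09 to 12.74. The mitochondrial genome gave COX2, a cytochrome oxidase subunit (13.62, 13.57 and 13.17), and ND3, a complex I subunit (12.68, 12.53 and 12.29). A second ND3 probe set was dimmer, at 9.95, 9.89 and 9.50, so the place of ND3 rests on the brighter one. Both mitochondrial genes were highest in A and lowest in G, as the protamines were. Beside them stood 3 genes known from the epididymis, the surface antigen Cd52 (12.68, 13.08 and 12.73), the serpin Serpina1f (11.98, 12.42 and 12.52) and the carboxylesterase Ces5a (11.66, 12.16 and 12.44). Those 3 were lowest in A, the opposite of Smcp, Odf1 and Prm2. Among all 1860 genes of mean 8 or more, 19.6% were highest in A, so bright genes as a whole tended not to be highest there.

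The list closed with Pebp1, a phosphatidylethanolamine-binding protein (12.13, 12.26 and 12.02), Reep6, a membrane-shaping protein (12.25, 11.92 and 11.84), and Hk1, hexokinase (11.74, 12.05 and 12.04). Reep6 was highest in A, and the probe set standing for Hk1 was lowest there. Between neighbours in the order the steps were small: the median step within the 100 brightest genes was 0.014, and 5 of 99 steps exceeded the median SD of these genes, 0.19. The order is therefore not resolved beyond the spread for most neighbours, although 15 genes were among the 20 brightest in every array.

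**Figure D1:**
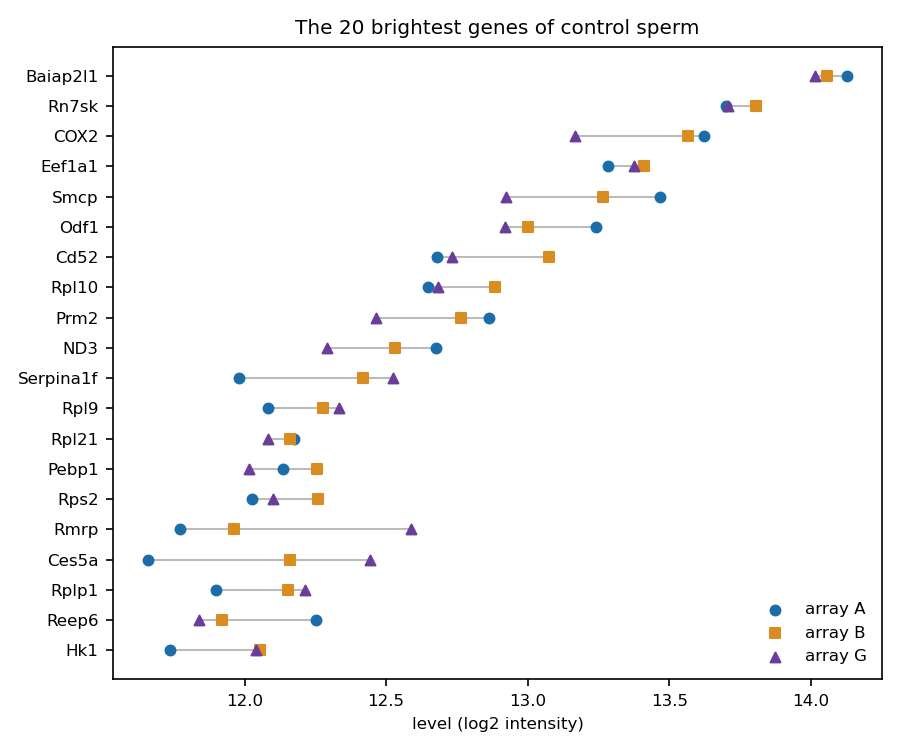
The 20 genes of highest mean level in control sperm, with the log2 intensity in arrays A, B and G as points and a grey line from the lowest to the highest. Smcp, Odf1, Prm2, COX2, ND3 and Reep6 are highest in A, and Serpina1f, Ces5a, Rmrp, Rpl9 and Rplp1 are highest in G.

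The symbol at the head of the order, Baiap2l1, needs care. Its probe set read 14.13, 14.06 and 14.02, but none of the accessions listed for that probe set is a RefSeq transcript of Baiap2l1, a gene for a membrane-bending adaptor. The probe set that does carry the gene's transcript read 6.42, 6.64 and 6.62, close to the median gene. COX2, ND3, Hk1, AY036118 and Wbscr25 also had no RefSeq match through their accessions, and the other 94 of the 100 brightest genes did. For Hk1, a second probe set with a matching transcript read 10.97, 10.76 and 10.76, so it was highest in A where the brighter one was lowest. Myo18b, an unconventional myosin in 49th place, had 20 probe sets with means from 4.40 to 11.25, so its place rests on a single one of them.

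The 100 brightest genes (0.515% of all) reached down to Entpd4 at 10.49, with Eif4g2 just outside at 10.49. Of the summed linear signal of the 19411 genes, the 100 together held 12.2%. Protein-coding genes made up 92 of them. In each pair of arrays 77 to 87 of the 100 brightest genes were shared, and 76 were in all 3. By the lists used here, cytosolic ribosomal protein genes supplied 27, epididymal genes 7, the 7 lists of sperm parts 8 and translation factors 4. Genes outside the lists were not counted, such as Serpina1f for the epididymis and Oaz3 for spermatids. Another 49 were in none of these lists, nor in those of ubiquitous transcripts and mitochondrially encoded genes. Among these 49, Sat1 was in the X-linked list and Scarna17 in that of small nucleolar RNAs.

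Some of the 100 genes of like function stood together, grouped here after their values were seen. Polyamine metabolism was present as Oaz3, a spermatid-specific antizyme (11.41, 11.22 and 10.80), Azin2, an antizyme inhibitor (10.90, 10.48 and 10.47), Sat1, a polyamine acetylase (11.06, 11.46 and 11.44), and Odc1, the first enzyme of the pathway (10.34, 10.80 and 10.71). Oaz3 and Azin2 were highest in A, whereas Sat1 and Odc1 were lowest in A. Glutathione-using enzymes included Gstm5 (12.13, 11.91 and 11.68), Gstm7 (10.44, 11.10 and 10.80) and Gpx4, which in sperm also becomes a structural protein of the midpiece (10.63, 10.68 and 10.51). The antiproteases Wfdc15b and Wfdc8 had means of 11.92 and 11.43, and the nuclear RNA Malat1 had 11.75.

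Genes of the sperm's own parts were spread over the whole scale. Of 164 genes named in 7 lists (chromatin packaging, tail sheaths, axoneme, acrosome, energy metabolism, ion transport and head shaping), 152 were measured. Above background were 139 of them (91.4%), against 79.6% of all genes. The median level of the 152 was 6.79 ± 0.08 (SD, n = 3), against 6.34 ± 0.03 for all genes, and 8 of 152 were among the 100 brightest. A few bright members thus stood over a broad base of genes near the middle of the scale. These lists were written with earlier results of these data known, so the counts are descriptions.

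Chromatin packaging had 10 genes measured, all above background, with a median of 7.76. Beyond Prm2, Tnp2 and Prm1, the third protamine Prm3 read 8.48, 8.19 and 7.92 and H1f7, a linker histone of spermatids, read 8.21, 7.79 and 7.88. Tnp1, the other transition protein, read 7.84, 7.71 and 7.10. The histone variants H2ab1 (6.53, 6.45 and 6.47) and H2al3 (5.89, 5.60 and 5.43) were the dimmest of the list. Every gene of the list was highest in array A.

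In the tail, the sheath list had 16 measured genes with a median of 7.08, all above background. Spata18, a mitochondrial quality protein (11.12, 11.004 and 10.86), and Odf2, the second main fibre protein (10.46, 10.29 and 10.18), followed Smcp and Odf1. Akap4, the anchoring protein that makes up much of the fibrous sheath and lies on the X chromosome, read 8.59, 8.43 and 8.60. Ropn1l and Cabyr, which bind such anchoring proteins, had means of 7.99 and 7.89. The dimmest were Spata19 (5.91) and Fsip2 (5.87), a partner of Akap4, so the signals of this list ran from 5.87 to 13.22.

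Axoneme genes were dimmer than the sheath leaders. Of 30 measured, 29 were above background (96.7%, against 79.6% of all genes), and the median was 6.77. Cfap43, a flagellar protein, read 8.72, 8.40 and 8.29, and the testis tubulin Tuba3a read 8.26, 8.34 and 8.36. Tppp2, Rsph1, the dynein heavy chain Dnah8 and the tektin Tekt2 had means from 7.63 to 8.03. Dnah5, the dynein of multiciliated cells (5.35), and Rsph4a, the only member not above background (4.78, 4.27 and 4.32), were lowest.

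Acrosome, zona-binding and fusion genes had a median of 6.38, the lowest of the 7 lists. Above background were 24 of 29 (82.8%), near the 79.6% of all genes. Crisp2, a secretory protein of the acrosome and tail, stood alone at 11.22, 10.96 and 10.97. The next were Izumo4 (7.52, 7.61 and 7.95), Adam3 (7.85, 7.41 and 7.60) and Acrbp, which binds proacrosin (7.49, 7.42 and 7.59). Spam1, the sperm hyaluronidase, read 3.96, 3.67 and 4.30, and Izumo2, Eqtn, Hyal5 and Spaca5 were also not above background. Genes with well-known acrosomal roles were thus found at both ends of the scale.

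Energy metabolism, with 19 of 22 genes above background (86.4%, against 79.6% of all genes) and a median of 7.26, was led by Hk1. Phospho1, a phosphatase, read 10.74, 10.35 and 10.08, the fatty acid-binding Fabp9 10.22, 10.25 and 9.93, and Pgk2, the testis form of phosphoglycerate kinase, 10.26, 10.05 and 9.90. Dbil5, a binder of acyl-CoA, read 9.94, 9.71 and 9.16. Ldhc, the sperm lactate dehydrogenase, read 8.51, 8.54 and 8.49 and hardly varied. The testis cytochrome Cyct (4.99), the nucleotide carrier Slc25a31 (4.83) and Pdha2 (5.01) were not above background.

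Head-shaping genes had a median of 7.0, with 18 of 20 above background. Tcp11, linked to sperm motility, read 11.58, 11.35 and 11.36, and Spem1, which acts in shedding the cytoplasm, and Spem2 had means of 9.22 and 10.05. Hook1, a microtubule linker, and Spata6, needed to join head and tail, had 8.60 and 8.37. Cylc1, a protein of the head's calyx, read 3.88, 3.96 and 3.47.

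Ion transport and signalling genes had a median of 6.70, and 23 of 25 were above background (92.0%, against 79.6% of all genes). Ppp1cc, the phosphatase of motility control, read 8.91, 9.35 and 9.24, and the testis kinases Tssk3 and Tssk6 had means of 8.97 and 8.25. Atp1a4, the sperm sodium pump, read 8.40, 8.16 and 8.15, and Catsper2, a subunit of the calcium channel of the tail, read 7.94, 7.91 and 7.94. Catsperb (5.52, 5.12 and 4.89) and Ppp3r2 (5.18, 5.19 and 4.99) were not above background.

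Genes of earlier germ cells were dimmer. Of 24 genes of stem cells and meiosis, 17 were above background (70.8%, against 79.6% of all genes) and the median was 6.03. Syce2, a protein of the synaptonemal complex that pairs chromosomes, was an exception at 10.03, 9.74 and 9.63. Of its partners, Syce1 was above background at 7.03, 6.87 and 6.75, while Sycp1, Sycp2, Sycp3 and Tex12 were not. Stra8, the switch into meiosis, read 3.70, 3.75 and 4.0. The piRNA pathway, which silences transposons in the germ line, had 16 of 18 genes above background (88.9%) and a median of 6.31. Gtsf1 led it at 10.58, 10.47 and 10.08, far above Tdrd7 at 7.15, 7.07 and 7.27.

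**Figure D2:**
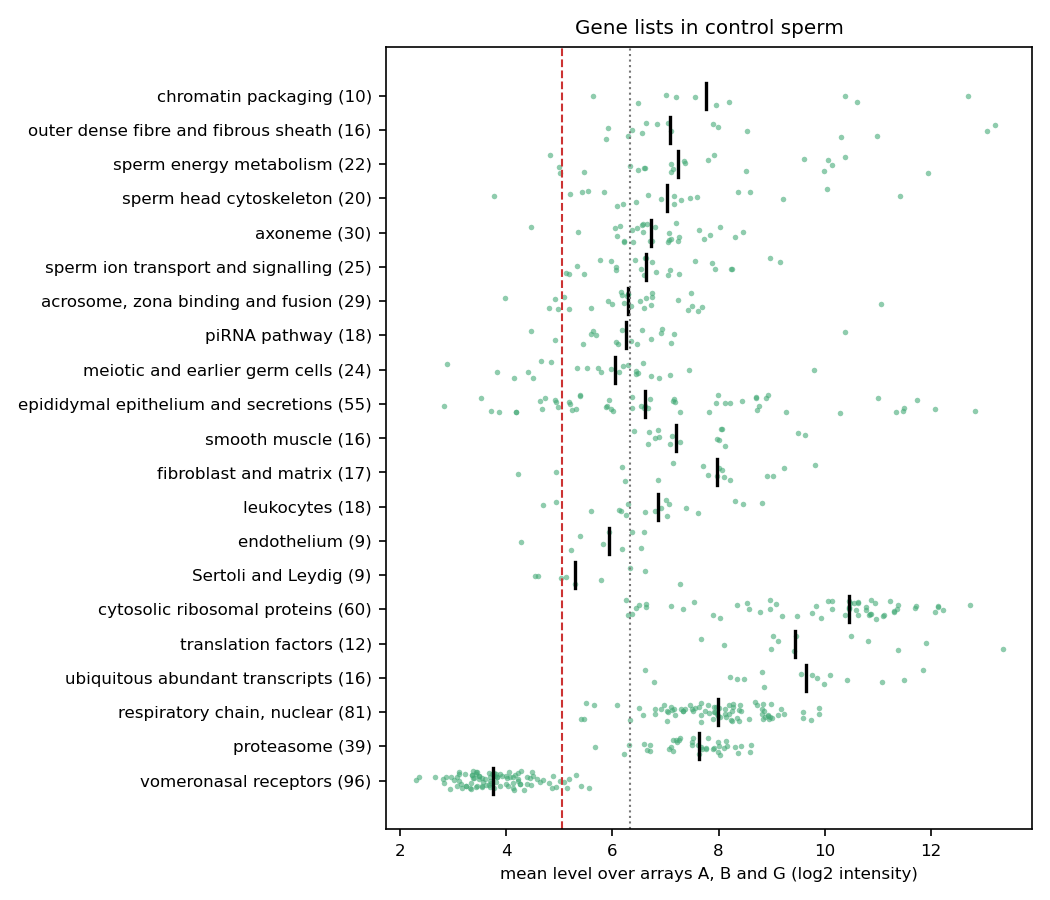
Mean log2 intensity over arrays A, B and G of each measured gene (points) by list, with the number of genes in brackets and the list's median as a black bar. The dashed line is the mean over the arrays of the background level, the dotted line is the median gene. Sperm lists run from 3.77, below the dashed line, to 13.22, ribosomal protein genes centre near 10.5, and vomeronasal receptors lie almost wholly below the dashed line.

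The promoters of these genes were read for features the ranking did not use. RefSeq promoter windows of 300 bases (250 before and 50 after the start, build GRCm38.p6) were at hand for 15186 genes, 127 of the 152 sperm-part genes among them. The ratio of observed to expected CpG, low where a promoter lacks a CpG island, had a median of 0.374 in the sperm-part genes and 0.624 in all genes. It was 0.151 for chromatin packaging, where all 10 genes were under 0.4, and 0.137 for head shaping, but 0.470 for energy metabolism and 0.596 for the axoneme. Other tissue-restricted lists were low too, with 0.190 for epididymal, 0.282 for leukocyte and 0.317 for fibroblast genes. Cytosolic ribosomal protein genes had 0.873, and over all genes the ratio went from 0.168 in the dimmest 10% of genes to 0.804 in the brightest 10%. Prm2, Tnp2 and Prm1 were thus bright genes with low ratios, at the end of the scale where most genes had high ones.

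Among motifs, the TATA box letters TATAAA, on either strand, were in a window of 14 of the 71 brightest genes that had one (19.7%), against 12.9% of all genes, but in only 7 of the 127 sperm-part genes (5.51%). The full cyclic AMP response element TGACGTCA was in 6 of 71 (8.45%), against 2.79% of all genes and 2.36% of sperm-part genes, and its core TGACG, on either strand and also part of the full element, in 32 (45.1%), against 28.5%. A variant, TGACATCA on either strand, was added to the search after sequences had been seen. It was in 16 of 127 sperm-part genes (12.6%), against 2.88% of all genes with a window and 7.04% of the 71 brightest. The share differed between the lists, with 5 of 17 head-shaping genes (29.4%) and 3 of 13 sheath genes (23.1%), but 1 of 28 axoneme genes (3.57%), 0 of 19 ion transport genes and 0 of 21 genes of earlier germ cells. Smooth muscle genes, outside the germ line, had it in 3 of 13 (23.1%). Genes can have several windows, and a gene counts when any holds the letters; a match is a run of letters and not a shown binding site.

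The 130 bases ahead of the start are printed for the 4 brightest sperm-part genes that carry the variant there, 5′ to 3′ on the gene's strand, with the motif in capitals (TGATGTCA is its other strand), and for Prm2 with its TATAAA match in capitals (TTTATA, the other strand). They are Hk1 (chr10:62379909-62380038, minus strand), Gapdhs (chr7:30743682-30743811, minus), Akap4 (chrX:7067385-7067514, plus), Spata6 (chr4:111777467-111777596, plus) and Prm2 (chr16:10792106-10792235, minus), all upstream of the annotated start.
Hk1: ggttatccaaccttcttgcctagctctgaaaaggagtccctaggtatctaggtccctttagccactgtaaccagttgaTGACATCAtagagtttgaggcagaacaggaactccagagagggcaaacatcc
Gapdhs: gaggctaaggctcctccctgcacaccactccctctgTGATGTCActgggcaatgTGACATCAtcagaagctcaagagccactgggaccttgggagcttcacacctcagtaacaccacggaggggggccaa
Akap4: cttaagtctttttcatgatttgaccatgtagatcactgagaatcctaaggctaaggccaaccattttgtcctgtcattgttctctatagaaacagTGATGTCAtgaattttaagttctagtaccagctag
Spata6: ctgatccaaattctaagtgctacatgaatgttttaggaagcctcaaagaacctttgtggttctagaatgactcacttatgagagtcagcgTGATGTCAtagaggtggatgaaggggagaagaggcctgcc
Prm2: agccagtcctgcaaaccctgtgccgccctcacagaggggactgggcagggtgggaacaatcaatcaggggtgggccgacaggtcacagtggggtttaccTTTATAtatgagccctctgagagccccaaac
Gapdhs held the motif 2 times in this stretch, once on each strand, at positions -94 and -76 from the start. In Akap4 and Spata6 it began at -35 and -40. Of these genes Gapdhs, Akap4 and Spata6 had means of 9.99, 8.54 and 8.37, and the Hk1 probe set with a matching transcript had 10.83. Other genes with the same letters were dim, such as Spam1 (3.98) and Cylc1 (3.77), so genes with these letters were found along the whole scale.

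Some markers of the tissue around sperm gave bright signals. In bulk RNA, fewer cells of a type and less RNA per cell cannot be told apart. Of 55 epididymal genes measured, 40 were above background (72.7%, less than the 79.6% of all genes), 7 were among the 100 brightest, and 15, including Rnase10, Cst12, Obp2a and Crisp3, were not above background. Spink8, a protease inhibitor, read 11.51, 11.90 and 11.82, Wfdc10 11.34, 11.66 and 11.51, Gpx3, a secreted peroxidase, 11.22, 11.59 and 11.64, and Adam7, a surface protein handed to sperm, 10.93, 11.54 and 11.55. All of these were lowest in array A, but Clu (10.95, 11.15 and 10.91) was lowest in G. Of the 18 epididymal genes of mean 8 or more 1 was highest in A, Krt19 (8.95, 8.76 and 8.59), against 19.6% of all genes of that level. Crisp3 read 2.81, 2.65 and 3.01, so the list reached from the top to the bottom of the scale.

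The genes that the PCR screen used were bright on the arrays. Actb, cytoplasmic actin, read 11.43, 11.61 and 11.47 (11.50 ± 0.09, SD, n = 3) and ranked 34th, and Myh11, the myosin of smooth muscle, read 8.13, 7.98 and 7.94. All 16 smooth muscle genes were above background, against 79.6% of all genes. Their median was 7.21, led by Acta2 (9.65, 9.81 and 9.43) and Csrp1 (9.41, 9.60 and 9.47). Fibroblast and matrix genes had 15 of 17 above background (88.2%) and a median of 7.80, with the collagen Col1a1 at 9.54, 9.75 and 10.16 and Sparc at 8.93, 9.03 and 9.75. Both were highest in G. Lum (4.21) and Postn (4.94), other matrix genes, were not above background.

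Leukocyte genes had 16 of 18 above background (88.9%, against 79.6% of all genes) and a median of 6.83, with Lyz2, the lysozyme of macrophages, H2-Ab1 and Cd74, which present antigen, at means of 8.82, 8.46 and 8.32. Cd79a (4.94), of B cells, and S100a8 (4.69), of neutrophils, were not above background. S100a9, in the same list, was above it at 5.85, 5.36 and 5.58. Endothelial genes were low, with a median of 5.93 and Egfl7 highest at 6.60, though 8 of 9 were above background (88.9%). Of 9 Sertoli and Leydig genes 5 were above background (55.6%), and the median was 5.31. Sox9 led at 7.27, and Fshr (4.54) and Hsd3b6 (4.60) were lowest. The 2 erythroid genes measured, Slc4a1 and Alas2, had means of 6.43 and 5.57.

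Genes of translation and basic upkeep made up the brightest lists. All 60 cytosolic ribosomal protein genes were above background with a median of 10.47 ± 0.21 (SD, n = 3), and 27 were among the 100 brightest. Many have near-identical copies in the genome, and averaging all probe sets of each gene gave a median of 10.02 instead. Rplp0, of the ribosomal stalk, read 11.57, 11.80 and 11.78, and Rps6 read 11.61, 11.85 and 11.67, whereas Rpl30 (6.29) and the muscle form Rpl3l (6.26) were dim. Translation factors had a median of 9.46, with Eef2, which moves the ribosome along, at 11.83, 12.02 and 11.88 and Pabpc1, which binds poly(A) tails, at 10.72, 10.85 and 10.90.

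Other abundant genes included B2m, the light chain of class I molecules (11.71, 12.23 and 11.64), and Fth1, ferritin (10.88, 11.14 and 11.19). The 81 nuclear respiratory chain genes were all above background with a median of 8.01, led by Atp5a1 (9.66, 10.13 and 9.92) and Atp5g2 (9.79, 9.99 and 9.91), both parts of ATP synthase, with the muscle subunit Cox8b (5.41) lowest. The 39 proteasome genes had a median of 7.64, from the thymic Psmb11 (5.67) to Psmd2 (8.60).

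Small RNA genes gave signals too, which on such an array come from the hairpin or its host transcript and do not tell the mature arms apart. Of 235 microRNA genes 122 were above background (51.9%), fewer than the 79.6% of all genes. Their median was 5.28, against 6.34 for all genes. Mir320 led at 10.06, 9.50 and 9.72, followed by Mir139 (9.40, 9.31 and 8.70), Mir346 (9.16, 9.26 and 8.98), Mir692-1 (8.98, 9.17 and 8.63) and Mir341 (8.96, 8.69 and 8.99). The mature sequences that RefSeq gives are printed for those matched, with the seed, bases 2 to 8, which pairs with targets, in capitals.
mmu-miR-139-5p: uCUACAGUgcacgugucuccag
mmu-miR-139-3p: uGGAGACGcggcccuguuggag
mmu-miR-346-5p: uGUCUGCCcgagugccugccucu
mmu-miR-346-3p: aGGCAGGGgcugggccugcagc
mmu-miR-692: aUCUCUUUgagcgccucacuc
mmu-miR-341-5p: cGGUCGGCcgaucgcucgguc
mmu-miR-341-3p: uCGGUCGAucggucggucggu
Of the 10 brightest microRNA genes 7 had mature sequences listed, and none of these 13 sequences shared a seed with another, 211 of the 235 genes having a mature sequence in the table. Of small nucleolar and Cajal body RNAs, 40 of 54 were above background (74.1%), with Scarna17 (10.62, 10.61 and 10.93), Snord15b (9.50, 9.62 and 9.76) and Snord57 (9.79, 10.00 and 8.97) brightest.

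The median gene on the X chromosome was dimmer than that on the autosomes. The sex chromosomes are silenced in meiosis and stay largely repressed in spermatids, apart from some genes that escape. The median of 712 X-linked genes lay 0.78 below that of 18610 autosomal genes in A, 0.78 below in B and 0.77 below in G (-0.78 ± 0.01, SD, n = 3). Every autosome had a higher median, from 6.12 on chromosome 13 to 6.60 on chromosome 8, against 5.60 on X, and 59.0% of X-linked genes were above background against 73.8% to 88.0% on the autosomes. Counting protein-coding genes without chemoreceptors gave -0.80 ± 0.01.

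**Figure D3:**
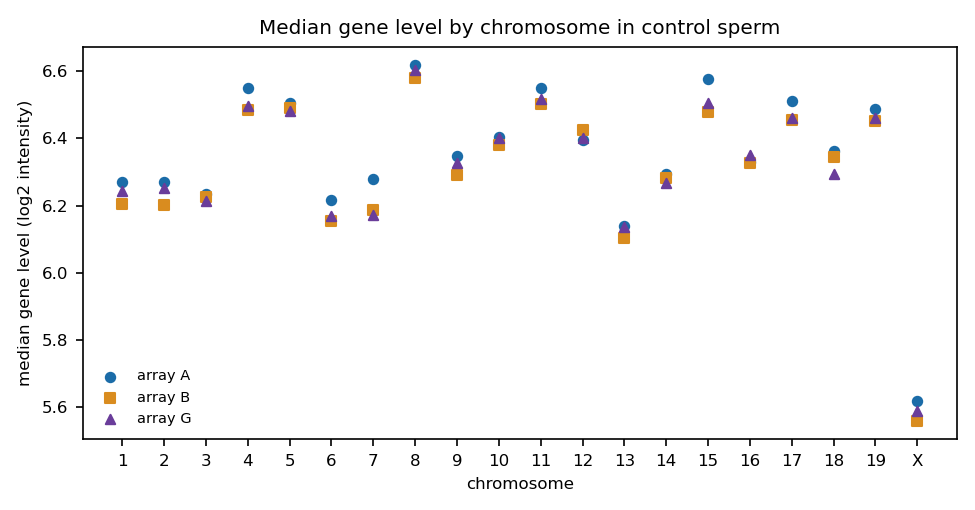
Median log2 intensity of the genes on each chromosome, with 1 point per array. The X chromosome lies at about 5.6 in A, B and G, under all 19 autosomes; the axis does not start at 0.

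At the bright end the X chromosome was less apart: 8.29% of its genes had a mean of 8 or more, against 9.64% on the autosomes and under 8.29% on chromosomes 1, 2, 6, 13 and 14. It gave 3 of the 100 brightest genes, 3 of 712 against 0.515% of all genes, Rpl10 (12.65, 12.88 and 12.68), Sat1 and Rps4x (11.12, 11.45 and 11.35). Several X-linked genes have autosomal copies used in the germ line, and 6 such pairs were looked up after the data had been seen. Pgk2 was brighter than X-linked Pgk1 (8.21, 8.62 and 8.61), and Rbmxl2 (7.57, 7.24 and 7.05) was brighter than Rbmx (6.59, 7.07 and 7.09) in A and B but not in G. In the other 4 pairs the X-linked gene was brighter, by the widest margin for Rpl10 over Rpl10l (7.09, 7.13 and 7.06), and signals of different probe sets are not on a common scale. Over the arrays, the X-linked gene was lowest in A in all 6 pairs, and the autosomal gene was highest in A in 2 of them, Pgk2 and Rbmxl2. Over all genes above background, 39.6% were highest in A. Among all genes of mean 8 or more 19.6% were, and the median differences of B and G from A were 0.21 and 0.21. Bright genes as a whole thus tended to be low in A, and the share of all genes lowest in A was not counted. Of 9 Y-linked genes, 6 were above background (66.7%, against 79.6% of all genes), with Sry (7.92, 7.65 and 7.36) and Eif2s3y (6.71, 7.04 and 7.27) brightest and Zfy2 (3.23) lowest.

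Most genes varied little over the 3 arrays. Among genes above background the median range from lowest to highest array was 0.29, and 91 of 19411 genes (0.469%) had a range of at least 1, of which 44 were above background. Ranges over the remaining arrays, which cannot be wider for a given probe set, gave 42 such genes without A, 51 without B and 19 without G. Array G was highest for 27 of the 44 above background, against 36.1% of all genes above background. Among the 100 brightest genes Rpl21, Baiap2l1, Rn7sk, Eef1a1 and Gsg1, a germ cell protein, had the smallest SDs, from 0.05 to 0.07. By level, the median SD was 0.17 in the dimmest 5% of genes, fell to 0.13 near a level of 7 and rose to 0.20 in the brightest 5%.

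The genes of widest spread included secreted and immune genes. Fn1, the matrix protein fibronectin, read 7.53, 7.40 and 9.24, Lyz2 8.68, 8.03 and 9.74 and Saa3, an acute-phase protein of macrophages and epithelia, 6.46, 5.60 and 7.25. Alox15, a lipoxygenase of resident macrophages, read 7.44, 7.15 and 8.57, and Thbs1, thrombospondin, 6.49, 6.61 and 7.56. These 5 genes were highest in G, and all but Thbs1 were lowest in B. The leukocyte list as a whole was highest in G for 12 of its 16 genes above background and in B for none, against 36.1% in G and 24.3% in B over all genes above background. Its summed linear signal was 0.104% of that of all 19411 genes in A, 0.0788% in B and 0.121% in G. Lyz2, named above for its spread, was the brightest member by mean and read 9.74 in G, so this sum is not separate from that gene. Cd79a and S100a8 remained not above background. What part other cells have in this spread was not tested.

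Other genes of wide spread were of different kinds. AI506816, an uncharacterised locus, read 6.22, 8.03 and 6.78, and Defb38, an epididymal defensin, 6.08, 7.63 and 7.15, both highest in B. Spink11, a protease inhibitor (6.58, 7.09 and 7.83), Nudt10, a phosphohydrolase (5.76, 6.33 and 7.16), Tbrg3 (6.10, 5.89 and 7.16), and Eif4a2, an RNA helicase of translation (8.59, 9.04 and 9.74), were highest in G. Short structured RNAs went both ways. Rpph1, the RNA of RNase P, read 11.004, 11.32 and 12.13, while Snord33 (7.64, 7.90 and 6.63), Snora74a (8.87, 9.50 and 8.28) and the vault RNA Vaultrc5 (8.64, 8.57 and 7.50) were lowest in G. With array G left out, 2 of the 15 genes of widest spread were still among the 15 widest, so the ranking by spread rests mainly on that array.

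**Figure D4:**
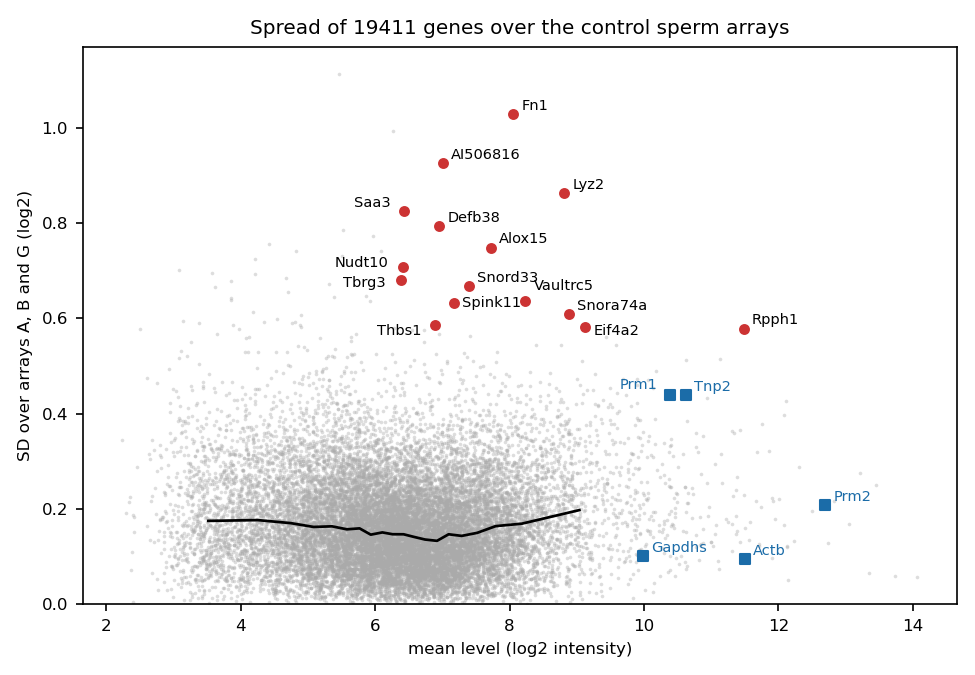
SD over arrays A, B and G against mean log2 intensity, 1 grey point per gene, with the running median SD in black. The 15 genes of widest spread among those at or above the median level are red, and sperm markers and Actb are blue squares. Fn1, at an SD of 1.03, is the highest of the red points, and Actb and Gapdhs lie near 0.1.

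Genes of sperm parts were mostly highest in array A. Of the 139 sperm-part genes above background, 98 were highest in A, 16 in B and 25 in G; after median centring 82 were highest in A and after quantile normalization 104. Over all genes above background the shares were 39.6% in A, 24.3% in B and 36.1% in G, but dim genes tended to be highest in A and bright ones not. Among the 1860 genes of mean 8 or more, 19.6% were highest in A, and among the 29 sperm-part genes of that level 23 were. The median difference of G from A was -0.22 for the sperm-part genes above background and -0.44 for chromatin packaging, against 0.0022 for all genes above background. At a mean of 8 or more it was -0.28 for the sperm-part genes and 0.21 for all genes. Other lists leaned the same way. The 8 endothelial genes above background were all highest in A, as were 83 of 122 microRNA genes (68.0%), both mitochondrially encoded genes and 9 of 16 smooth muscle genes (56.3%). For smooth muscle the median difference of G from A was -0.22. At levels of 5.9 to 6.0, near the endothelial median of 5.93, 55.0% of all genes were highest in A. The share was 56.4% at levels of 5.2 to 5.5, near the microRNA median of 5.28. It was 25.5% at levels of 7.2 to 7.4, near the smooth muscle median of 7.21.

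Translation genes were seldom highest in A, and bright genes as a whole tended not to be either. Of the 60 ribosomal protein genes 3 were highest in A, 28 in B and 29 in G. Of the 12 translation factors none was highest in A. The shares over all genes above background were 39.6% in A, 24.3% in B and 36.1% in G. At a mean of 8 or more 19.6% of all genes were highest in A. For ribosomal protein genes of that level, the median differences of B and G from A were 0.24 and 0.21. For all genes of that level they were 0.21 and 0.21. Respiratory chain genes were highest in B for 58 of 81, with a median difference of G from A of 0.04 that became -0.07 with quantile normalization. Proteasome genes were highest in B for 23 of 39, in A for 10 and in G for 6. Epididymal genes above background were highest in A for 10 of 40, in B for 17 and in G for 13. The summed linear signal of the epididymal list was 1.14% of that of all 19411 genes in A, 1.39% in B and 1.32% in G. Fibroblast genes were highest in G for 11 of 15, and smooth muscle genes in A for 9 of 16, in B for 7 and in G for none. Sperm-part genes held 2.79% of the linear signal of all 19411 genes in A, 2.39% in B and 2.14% in G. The part that other cells, RNA quality or the array itself have in these differences was not tested.

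**Figure D5:**
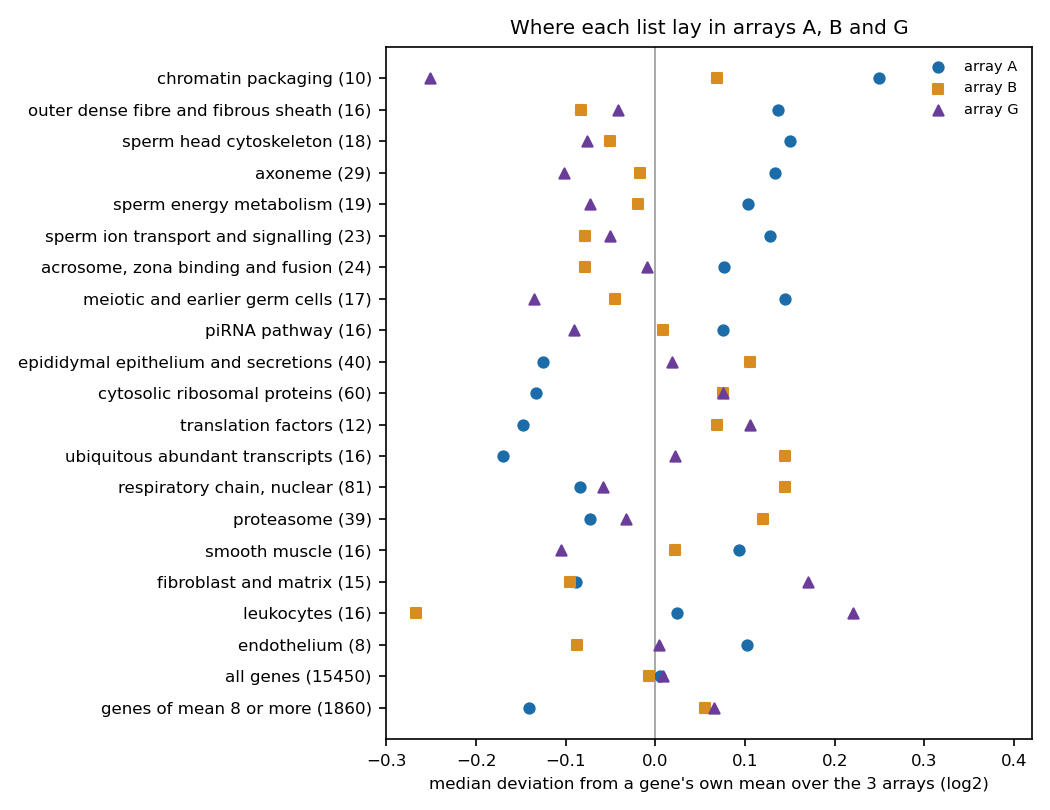
Median over the genes of a list (number above background in brackets) of each gene's deviation from its own mean, on the log2 scale, in arrays A, B and G. Germ cell lists lie to the right of 0 in A, by 0.25 for chromatin packaging, while ribosomal, translation and epididymal lists lie to the left in A; genes of mean 8 or more lie at -0.14 in A.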

How the data were processed

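The authors deposited log2 intensities, 1 value per probe set and array, for which the submitters' processing notes name RMA; its version, the annotation and the genome build were not given in the sources used here. RMA usually corrects background, quantile-normalizes probes and summarizes them, so total RNA per cell is not visible. The platform annotation gave 1 gene for 21222 of 33660 probe sets, several for 1541 and none for 10897. Symbols were updated through a RefSeq table of assembly GRCm38.p6 for 21137 and kept for 85. The probe set of highest mean over arrays A, B and G stood for a gene; 972 genes had more than 1. Mean, SD and range were computed in Python 3.11.15 with pandas 2.3.3, and the code was also run on simulated data. The spread added there was set wider than that of any gene named here for its spread, so recovery of narrower spreads was not tested. No test across groups was made. The text names the 20 brightest genes, the 15 of widest SD at or above the median level, the 5 of smallest SD among the 100 brightest, up to 6 bright and 2 dim members of each list, the markers, Actb and Myh11; other genes, including list members beyond these, were chosen after their values were seen. Members and lists were chosen with earlier results of these data known. The pattern for mitochondrial genes matched none, so COX2 and ND3 were found by chromosome. The number of arrays, 3, limits the precision.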

Additional observations from a re-analysis of the deposited data

How the results depend on the processing

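Median centring shifts all genes of an array alike, so it could not change the order by mean, and 100 of the 100 brightest genes stayed. Quantile normalization kept 99 of them. Ranking named and unnamed probe sets together left 20 of them. Genes with a range of at least 1 numbered 91, and 44 when restricted to genes above background. Leaving out an array in turn gave 19 to 51. A restriction can only lower the count, and for a given probe set a range over fewer arrays cannot be wider. Of the 15 genes of widest spread, 2 to 11 remained when an array was left out, and 6 with no filter on low values. The count of ribosomal protein genes highest in array A, 3, became 1 with median centring and 6 with quantile normalization. The X-linked difference was -0.80 among protein-coding genes without chemoreceptors, an alternative chosen after seeing the data. The median difference of G from A in respiratory chain genes changed from 0.04 to -0.07 with quantile normalization. The causes of these changes were not tested. Background rests on receptor genes: the 95th percentile of olfactory receptors gave 11724 genes above it and the 99th of vomeronasal receptors 13941.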

Other observations

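Much of the brightest signal of control sperm came from probe sets outside the gene ranking. Of the 100 brightest probe sets, 41 had no gene name here and 27 carried several genes, and 5 probe sets were brighter than the brightest gene. Unnamed probe sets reached a mean of 14.19 and those of several genes 14.51. A range of at least 1 over arrays A, B and G was found in 17.8% of unnamed probe sets and in 2.14% of those with several genes, against 0.469% of named genes.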
